A study of Mus musculus with 2 samples.

Results

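Inner hair cell nuclei were taken from 2 single-nucleus RNA libraries of the postnatal mouse cochlea by a marker gate, a set of conditions on transcripts counted in each nucleus. A nucleus was kept with at least 500 detected genes, at most 5% of its unique molecular identifiers (UMIs, each standing for 1 captured RNA molecule) from mitochondrial genes, and at most 15000 UMIs. It was called a hair cell nucleus with at least 1 UMI of at least 4 of the 8 genes Ptprq, Myo3a, Tmc1, Loxhd1, Strip2, Dytn, Pcdh15 and Cdh23. It was called an inner hair cell nucleus when Slc17a8 and Fgf8 together had at least 2 UMIs and more than Slc26a5 and Ocm together. The gate held 106 nuclei, 84 in one library and 22 in the other, of 19339 kept nuclei and 21834 barcodes. These nuclei were chosen by measured values, so the 12 gate genes describe the selection and support nothing about it. The mirror gate, with the 2 gene pairs exchanged, gave 302 and 245 outer hair cell nuclei for comparison.

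The first library, called Serpine2 cOE (conditional overexpression, as the series title has it), came from 20 pooled cochleae of mice carrying Lgr5EGFP-CreER/+ together with Serpine2loxp/loxp. The control library came from 19 pooled cochleae of Serpine2loxp/loxp mice, which lack the driver. Both groups received tamoxifen at postnatal day 1 and were collected at day 7, and the tissue was labelled as cochlear basement membrane. Cre is driven from the Lgr5 locus, a gene of cochlear progenitors and supporting cells, and what recombination at the loxP sites produces is not given in the sources used here. Presence of the driver and any change of Serpine2 go together in this design and cannot be told apart. Each group is 1 library of pooled ears, so no difference between libraries has a replicate check, no test was made, and every interval below is a 95% interval of counting error only.

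Inner hair cells are the sensory cells of hearing. They form a single row along the organ of Corti, open mechanically gated channels at the tips of their stereocilia, and release glutamate at ribbon synapses onto the auditory nerve. Slc17a8 encodes VGLUT3, the transporter that fills their vesicles with glutamate, and Fgf8 a secreted growth factor that they make during development. Outer hair cells amplify sound by changing length through prestin, the product of Slc26a5, and contain the calcium buffer oncomodulin, the product of Ocm.

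The 84 cOE inner hair cell nuclei summed to 631615 UMIs and the 22 control nuclei to 184587. They were deep for these libraries, with a median of 6758 UMIs in cOE (3142 to 14885) and 7748 in control (3510 to 14118). Their median mitochondrial share was 0.202% in cOE and 0.165% in control. Levels of summed nuclei are given as CPM, the UMIs of a gene scaled to the total of the class. A gene with 0 UMIs could still stand at 4.75 CPM in the cOE members or 16.3 CPM in the control members, the level of 3 UMIs. The libraries share 27 cell barcodes, none of them among these nuclei. Scrublet scores, which rank nuclei by likeness to simulated doublets, put 15 of the 84 cOE and 1 of the 22 control nuclei in the part of each library that a loading rule would remove. Sex-linked genes differed between the pools. Over all kept nuclei, the Y-linked gene Uty was at 153 and 66.0 CPM (cOE, then control, here and in all pairs of values below), and Xist, expressed from the inactive X chromosome, was at 1936 and 2606 CPM.

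The gate genes varied among the members. Both Slc17a8 and Fgf8 were present in 63 cOE and 13 control nuclei, Slc17a8 alone in 14 and 5, and Fgf8 alone in 7 and 4. Their UMIs together had a median of 5 in cOE (2 to 20) and 3.5 in control (2 to 13). All 8 hair cell genes were detected in 62 of 84 cOE and 16 of 22 control nuclei, and no member had fewer than 6. Just inside the threshold, with a pair sum of exactly 2, were 11 cOE and 8 control nuclei. Their median Rims2 level was 30.0 and 35.3 UMIs per 10000 UMIs. Just outside, with a sum of 1 and none from the outer pair, were 9 and 3 hair cell nuclei with median Rims2 levels of 12.3 and 23.6. At least 1 UMI of Slc26a5 or Ocm was present in 25 cOE and 3 control members. Ocm was in 24 cOE and 2 control members (28.6% and 9.09%). The gate caps its level in the members, at 41.2 and 10.8 CPM. In the nuclei with none of the 8 hair cell genes, whose median depth was 2193 and 2053 UMIs, it stood at 109 and 74.6 CPM and was found in 23.6% and 15.9%.

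The label was set beside the 4 markers of inner hair cells that the gate did not use. Otof (chromosome 5, 30524406 to 30619324, minus strand, GRCm39) encodes otoferlin, the calcium sensor of vesicle release in hair cells. It was detected in 84 of 84 cOE and 22 of 22 control members. Its level per nucleus ran from 2.32 over a median of 19.7 to 59.0 UMIs per 10000 in cOE, and from 5.77 over 17.6 to 35.4 in control. The control range lay inside the cOE range. Rims2 (chromosome 15, 39060328 to 39549500, plus strand), an organizer of the presynaptic active zone, was also in every member, from 6.68 over 42.8 to 92.1 in cOE and from 9.90 over 40.6 to 92.2 in control. Tafa3 (chromosome 3, 104674711 to 104689156, minus strand), a secreted chemokine-like protein, was in 70 of 84 and 17 of 22 members. Tbx2 (chromosome 11, 85723377 to 85734115, plus strand), a transcription factor known to be needed for inner hair cell identity, was in 61 and 16. All 4 markers were present in 48 cOE and 12 control members, 3 of them in 35 and 9, and 2 in 1 and 1. In nuclei with none of the 8 hair cell genes Otof was found in 3.22% and 3.20%, Rims2 in 5.09% and 3.57%, Tafa3 in 0.190% and 0.0736%, and Tbx2 in 12.3% and 7.96%. In outer hair cell nuclei Otof was found in 87.4% and 88.6% and Rims2 in 43.7% and 36.7%. Tafa3 was in 1.66% and 1.22% of them and Tbx2 in 16.6% and 11.0%. Each of the 4 was thus found in a larger share of inner than of outer nuclei in both libraries, though Otof was common in both classes. The markers were chosen with earlier results of these data known, so they describe the members and are no independent check of the label.

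**Figure D1:**
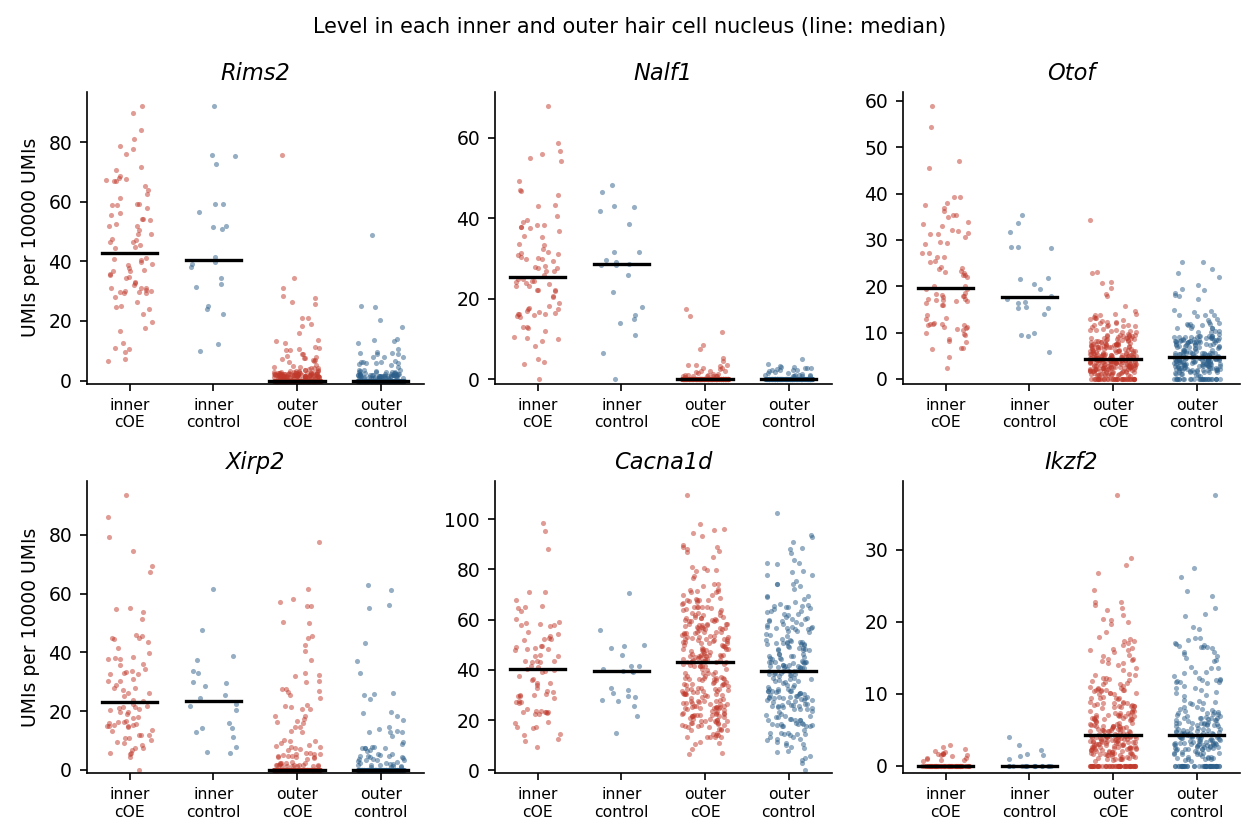
Each point is 1 nucleus, each panel 1 gene, and the vertical axis gives UMIs per 10000 UMIs of that nucleus, with a line at the median, for inner and outer hair cell nuclei of each library. Rims2, Nalf1 and Otof have higher medians in inner nuclei, Cacna1d medians lie between 39.4 and 43.2 in all 4 groups, and Ikzf2 has a median of 0 in inner nuclei of both libraries.

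Inner hair cell nuclei made up 0.795% of the kept nuclei of the cOE library (84 of 10567, Clopper-Pearson interval 0.634 to 0.983). In the control library they made up 0.251% (22 of 8772, 0.157 to 0.380), so the ratio of the shares was 3.17 (1.96 to 5.33). The share of outer hair cell nuclei was 2.86% in cOE and 2.79% in control, a ratio of 1.02 (0.862 to 1.22). All hair cell nuclei together were 4.61% and 4.50%. Hair cell nuclei in neither gate were 0.956% (101) and 1.46% (128), a ratio of 0.655 with an upper bound of 0.857. Of the nuclei in the inner or the outer gate, 21.8% of the cOE nuclei were inner (17.8 to 26.2). The same share was 8.24% for the control (5.24 to 12.2), and the ratio was 2.64 (1.64 to 4.44).

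**Figure D2:**
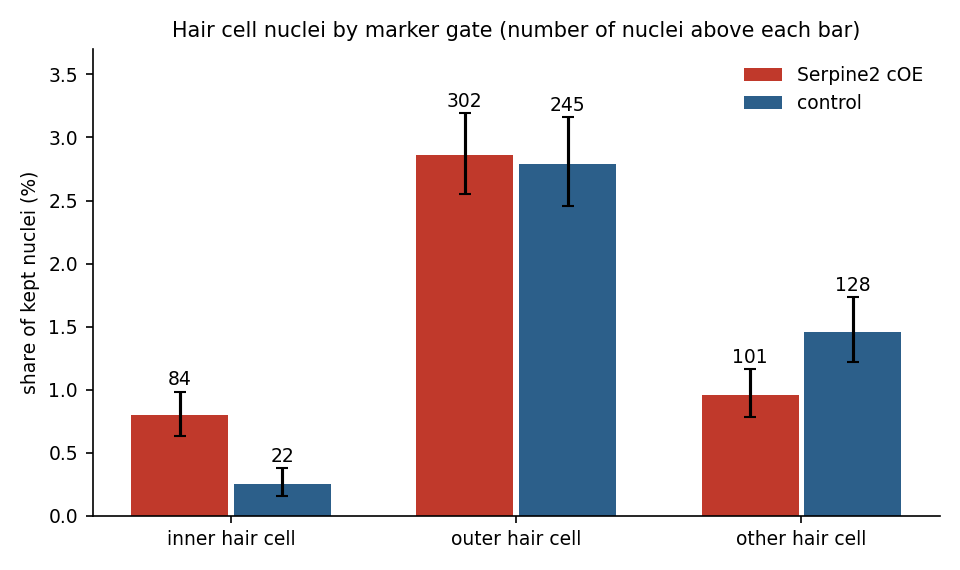
Bars give the share of kept nuclei in the inner gate, the outer gate and neither gate among hair cell nuclei, in percent, for each library, with 95% Clopper-Pearson intervals and the number of nuclei on top. The inner share is 0.795% in Serpine2 cOE and 0.251% in control, while the outer shares are 2.86% and 2.79%.

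Shares also differed in the same direction under the other gates tried, with ratios that varied. Some of these gates kept the same 84 and 22 members and are no separate check. Depth differed by class. Median UMIs were 6758 in cOE and 7748 in control for inner nuclei, and 5798 and 6132 for outer nuclei. Hair cell nuclei in neither gate had medians of 5913 and 2832. Of these, 41 and 64 had no UMI of any of the 4 genes that separate inner from outer, with medians of 4672 and 1639 UMIs. After thinning to 1000 UMIs before the gate, 25 and 3 inner nuclei were left and the log2 ratio was 2.70 (0.99 to 5.07). Among kept nuclei with at least 3000 UMIs, all 84 and 22 members remained and the shares were 2.21% and 0.830%, a log2 ratio of 1.41 (0.72 to 2.16) against 1.66 (0.97 to 2.41) for the main gate. With no upper limit on UMIs, 15 cOE and 13 control nuclei joined and the log2 ratio was 1.23 (0.66 to 1.83). With Rims2 at 10 or more UMIs in place of Slc17a8 and Fgf8, a gate chosen after seeing the data, there were 110 and 40 nuclei and the log2 ratio was 1.19 (0.66 to 1.75). Rims2 reached 10 UMIs in 79 of 84 and 22 of 22 members, in 12 of 302 and 8 of 245 outer nuclei, and in 19 of 101 and 10 of 128 hair cell nuclei in neither gate. Without the nuclei of highest doublet score, 69 and 21 members were left and the log2 ratio was 1.47 (0.75 to 2.25). The part of depth and doublets in the difference beyond these values was not tested.

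**Figure D3:**
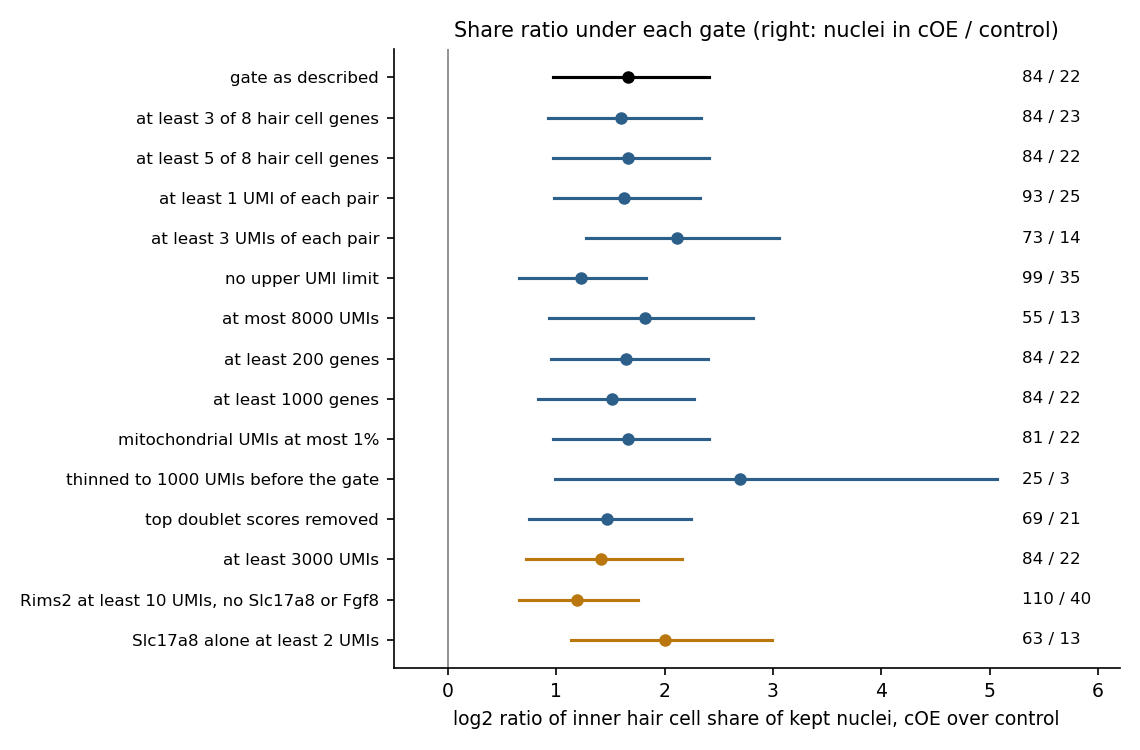
Points give the log2 ratio of the inner hair cell share of kept nuclei, Serpine2 cOE over control, under each gate, with 95% counting intervals, and the numbers of nuclei stand on the right. All points lie above 0, from 1.19 for the Rims2 gate to 2.70 after thinning to 1000 UMIs, where 25 and 3 nuclei were left. Settings with 84 and 22 nuclei on the right have the same members as the gate as described and are no separate check. Black marks the gate as described, blue the other gates and filters and brown those added after seeing the data.

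Inner nuclei were next set against outer nuclei within each library. The gate itself separates these classes, so the contrast describes what else differs between them. Genes with at least 40 UMIs over both classes and libraries numbered 11243. Of these, 271 (2.41%) were at least 2-fold higher in inner nuclei in both libraries and 336 (2.99%) at least 2-fold lower. A further 60 genes passed 2-fold in opposite directions and at most 2431 in 1 library only, a count that may hold the 60. The median log2 ratio of all these genes was -0.09 in cOE and -0.08 in control.

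The gene with the highest ratio in both libraries, by the value nearer 0, was Nalf1 (chromosome 8, 9255883 to 9821161, minus strand), an auxiliary factor of the sodium leak channel NALCN. It was in 83 of 84 cOE and 21 of 22 control inner nuclei, with medians of 25.4 and 28.6 UMIs per 10000, and in 31 of 302 and 26 of 245 outer nuclei. Its log2 ratio of inner over outer was 6.37 in cOE and 6.62 in control. No outer nucleus reached the inner median in either library. Tafa3 followed with log2 ratios of 7.06 and 6.01, from 5 UMIs each in outer nuclei. Then came 6530403H02Rik (5.49 and 5.15), which was detected in 84 of 84 and 20 of 22 members. The postsynaptic scaffold gene Dlgap2 stood at 5.38 and 5.02, and Hs3st4, a heparan sulfate sulfotransferase, at 4.99 and 5.20. The urea transporter Slc14a1 had log2 ratios of 5.07 and 4.58 and Gm1113 of 6.25 and 4.38, with 8 and 7 UMIs in control members. Atp2a3, a calcium pump of the endoplasmic reticulum, stood at 4.37 and 4.41, and Brip1, a DNA helicase gene, at 4.44 and 4.27. Rims2 was at 4.04 and 4.41, and Adarb2, an RNA-binding relative of the adenosine deaminases, at 3.85 and 4.20. Cabp2, a calcium-binding regulator of the hair cell calcium channel, closed the 12 at 3.83 and 3.88. Tafa3, Dlgap2, Hs3st4 and Brip1 overlap other annotated genes on the opposite strand, and Hs3st4 also overlaps 4930551E15Rik on the same strand. Part of their reads may belong to those genes. In all 12 the counting intervals of both libraries lay above 2-fold.

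At the other end, the 12 genes with the lowest ratios were led by Gm31698, at a log2 ratio of -4.83 in cOE and -3.78 in control. It was in 6 and 3 inner nuclei but in 250 of 302 and 207 of 245 outer nuclei. Ikzf2 (chromosome 1, 69570373 to 69727004, minus strand) encodes Helios, a transcription factor of outer hair cells. It was in 18 of 84 and 7 of 22 inner nuclei against 251 of 302 and 200 of 245 outer nuclei, with log2 ratios of -3.75 and -3.06. Gm29114 overlaps Ikzf2 on the opposite strand and stood at -3.13 and -3.69. Since the use of strand in counting is not given in the sources used here, reads of the pair may not be separable. Gm29112 and Gm28112 also overlap Ikzf2, on the same strand. Kalrn, a guanine nucleotide exchange factor, was in 300 of 302 and 242 of 245 outer nuclei but in 30 of 84 and 9 of 22 inner nuclei (-3.10 and -3.30). The other 8 were Proser2 (-3.39 and -5.17, with 1 UMI in control members), Ctxnd2, Tmem145, the citron kinase gene Cit, Fam241a, Pgm5, the zinc finger gene Zfp503 and the actin-binding gene Ablim3. Ratios of the 12 lay between -2.91 and -5.17. Zfp503 also rested on 1 UMI in control members, and its control interval (-8.46 to -0.62) reached less than 2-fold, while those of the other 11 lay past 2-fold in both libraries.

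**Figure D4:**
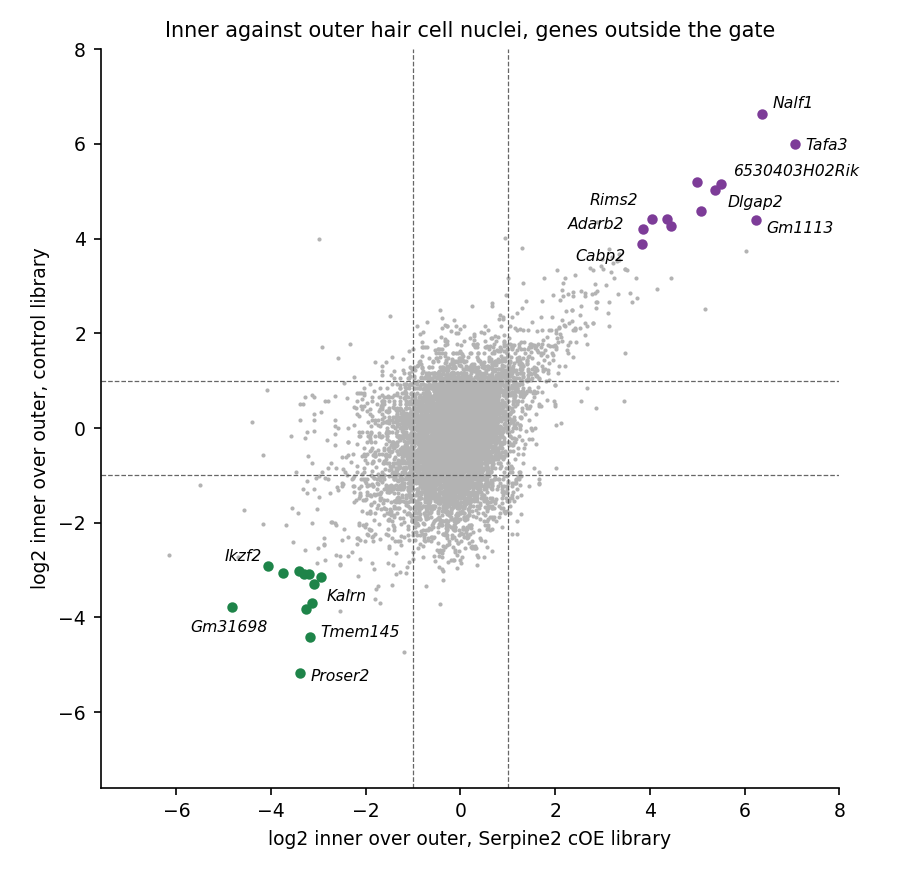
Each point is 1 gene with at least 40 UMIs, and the axes give its log2 ratio of inner over outer hair cell nuclei in Serpine2 cOE (horizontal) and control (vertical), with dashed lines at 2-fold. The 12 highest genes (purple) and 12 lowest (green) lie past 2-fold in both libraries, and the 12 genes of the gate are left out.

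Of 19 measured ribbon synapse genes outside the gate, 5 were at least 2-fold higher in both libraries and none at least 2-fold lower, beside the 2.41% and 2.99% of all genes. The list's median log2 ratio was -0.05 in cOE and 0.13 in control. The 5 were Rims2, Otof (2.01 and 1.67), Cabp2, Cacnb2 (1.04 and 1.01) and Cacna2d2 (1.72 and 2.68). Rims2 and Otof are also among the markers set beside the label. Cacnb2 and Cacna2d2 encode auxiliary subunits of the calcium channel. Cacna1d, its pore-forming subunit, was in every member and stood at 3828 and 3559 CPM in inner and 3962 and 3870 CPM in outer nuclei. The active zone scaffold genes Bsn and Pclo had log2 ratios between -0.10 and 0.21. Erc2, another scaffold gene, was at -0.73 and -0.59. Ctbp2, which shares its locus with the ribbon protein Ribeye, gave 25 and 6 UMIs in inner nuclei, too few to place. Otof was not confined to inner nuclei: 264 of 302 and 217 of 245 outer nuclei had it, and 5 and 11 of them reached the inner median of their library.

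Among outer hair cell genes outside the gate, 6 of 7 measured were at least 2-fold lower in both libraries, beside 2.99% of all genes. They were Ikzf2, Lbh, Sri, Strc, Aqp11 and Bcl11b. The list's median was -1.89 and -1.75. Of 11 measured hair cell transcription factors, Tbx2 was higher (2.42 and 3.24) and Ikzf2 lower, beside 2.41% and 2.99% of all genes. The median of this list was -0.13 and -0.05. Gfi1, a zinc finger factor needed for hair cell survival, stood at 0.99 and 1.55. Pou4f3, a factor of hair cell survival, was at 38.0 and 37.9 CPM in inner nuclei.

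The counts of bundle and channel genes past 2-fold were small, as were the overall shares of 2.41% higher and 2.99% lower. Of 5 measured transduction channel genes outside the gate, 1 was higher, Tmc2, the channel subunit made early in hair cell development, at 144 and 114 CPM in inner and 53.5 and 52.1 CPM in outer nuclei. It was in 41 of 84 and 12 of 22 members. Of 24 measured stereocilia genes, Xirp2, an actin-associated protein of the bundle, was higher (2.38 and 2.78) and Strc, which encodes stereocilin, lower (-1.91 and -1.79), with a list median of -0.08 and -0.06. Xirp2 was in 83 of 84 and 22 of 22 members. In outer nuclei it was in 83 of 302 and 60 of 245, of which 24 and 11 reached the inner median. The myosin gene Myo3a, part of the gate's first step and so required of neither class alone, was at 2646 and 2497 CPM in inner and 840 and 752 CPM in outer nuclei.

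Calcium handling differed by gene. Of 8 measured genes, Slc8a1, a sodium-calcium exchanger, was higher in inner nuclei (2.19 and 2.17), and Atp2b2, the calcium pump of outer hair cell bundles, was lower (-1.47 and -1.30). Atp2b1, another plasma membrane pump, stood at 0.90 and 0.46. None of 11 measured ion channel genes passed 2-fold in both libraries. Nearest were Kcnma1, the large-conductance potassium channel that inner hair cells gain as they mature, at 1.10 and 0.90, and Kcnh7, at 0.94 and 1.06. None of 5 measured genes of the efferent cholinergic response passed either. Chrna9 was at 0.15 and -0.04 and Chrna10 at -0.72 and -0.94, the 2 subunits of the receptor for efferent fibres. None of 4 measured genes of the plasminogen and thrombin system, 8 of the FGF pathway outside the gate, 10 of apoptosis or 9 supporting cell markers passed 2-fold in both libraries. Beside the 2.41% higher and 2.99% lower of all genes, counts of none or 1 in lists this short are no result about the lists.

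The members also differed among themselves. Of 302 genes with a mean of at least 3 UMIs per member in each library, 48 were detected in every member of both libraries. Rims2 and Cacna1d were among the 48, as were the gate genes Myo3a, Ptprq and Tmc1, whose detection the gate favours. In both libraries, 8 of the 302 genes were in fewer than 80% of members. Adarb2 was in 51 of 84 cOE and 12 of 22 control members, with up to 51 and 58 UMIs in 1 nucleus. Its level ran from 0 over a median of 1.74 to 68.3 UMIs per 10000 in cOE, and from 0 over 3.21 to 42.4 in control. Mir100hg, the host transcript of microRNA genes, was in 45 and 13 members. The adhesion genes Cntnap5a and Pcdh9 were in 57 and 14, and in 58 and 14. Csmd1 was in 61 and 15 and Ralyl in 56 and 16, and the last of the 8, A330015K06Rik and Gm42439, were each in 63 and 17. Isl1, a transcription factor of the otic lineage, is outside the 302 genes, with 112 and 20 UMIs. It was in 39 of 84 and 10 of 22, at counts too low to tell variation from sampling. Detection of the 8 genes thus varied from nucleus to nucleus within both libraries. The part of depth in this was not tested.

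Between the libraries, all 4 inner hair cell markers outside the gate lay within 2-fold, and the counting interval of Tafa3 alone left out 0. On the log2 scale, the ratio of cOE to control was 0.17 for Otof (-0.004 to 0.36), -0.002 for Rims2 (-0.12 to 0.12), -0.12 for Tbx2 (-0.65 to 0.44) and 0.78 for Tafa3 (0.26 to 1.33). For the gate genes, given as a description, it was 0.34 for Slc17a8 (-0.05 to 0.76) and 0.45 for Fgf8 (-0.09 to 1.02). Of 4460 genes with at least 40 UMIs in the 106 nuclei, 174 (3.90%) were at least 2-fold higher in cOE and 84 (1.88%) at least 2-fold lower, with a median log2 ratio of 0.04. With at least 100 UMIs required, 17 of 1769 genes were higher (0.961%) and 15 lower (0.848%).

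Of the 13 measured ribbon synapse genes outside the gate, none was 2-fold apart between libraries, and the median log2 ratio was 0.14. The same held for 7 hair cell transcription factors (median 0.13), 4 transduction genes (0.50), 7 ion channel genes (-0.31) and 3 genes of the cholinergic response (0.22). It held also for 3 genes of nascent hair cells and progenitors (0.13), 2 outer hair cell genes (0.13), 2 of the plasminogen and thrombin system (0.20) and 4 of apoptosis (0.17). Of 22 stereocilia genes 1 was 2-fold higher in cOE (median 0.23). It was Myo7a, a bundle myosin, with 60 UMIs in 38 cOE and 7 UMIs in 6 control members, and a log2 ratio of 1.32 (0.19 to 2.70). In outer nuclei the Myo7a ratio was 0.08. Of 8 genes of calcium handling 1 was lower, Atp2a2, a calcium pump of the endoplasmic reticulum, at 133 and 271 CPM (-1.03, -1.55 to -0.49), and the median was 0.27. Without the nucleus with most Atp2a2 UMIs in each library the value was -0.86. For such values, here and below, the class totals were kept. Since 1 nucleus is a larger part of 22 control than of 84 cOE members, these values tend to lean towards cOE. Of 4 measured FGF pathway genes outside the gate 1 was lower, the pathway inhibitor Spred1 (35 and 25 UMIs, -1.29, -2.07 to -0.49). Beside the 3.90% and 1.88% of all genes past 2-fold, counts of none or 1 in lists this short are no result about the lists.

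The 10 genes highest in cOE by the naming rule each rested on 1 to 3 control UMIs, so their ratios have wide intervals. They passed the filter of 40 UMIs almost wholly through cOE and were picked for their high ratios. Their intervals do not allow for this choice and are no support for a difference. Cubn, which encodes the endocytic receptor cubilin, had 73 UMIs in 28 cOE and 2 UMIs in 2 control members, a log2 ratio of 3.42 (1.51 to 6.49). In outer nuclei its ratio was 0.53 (-0.56 to 1.69). Crispld1, which encodes a secreted protein, had 64 and 3 UMIs (2.64, 1.03 to 4.96). Srp19, a subunit of the signal recognition particle, had 39 and 1 (3.51, 0.95 to 8.85). The other 7 were Cox6b1, a subunit of cytochrome c oxidase, Card19, Dcun1d5, the microtubule-binding gene Eml2, Wbp2, Dnajc5b, a cysteine string protein, and Rpl36al, with log2 ratios between 2.07 and 2.58. Rpl36al has a near-identical relative, so its reads may be split between the copies. Cubn, Crispld1, Dnajc5b and Rpl36al overlap other annotated genes on the opposite strand, so part of their reads may belong to those genes. Card19 was also higher in outer nuclei (0.60, 0.23 to 0.97) and outside the hair cell gate (0.49). The outer intervals of the remaining genes spanned both directions.

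The 10 lowest were better counted, with 21 to 61 control UMIs, but were likewise picked by their ratios. B4galnt3, a glycosyltransferase gene, had 50 UMIs in 23 cOE and 61 in 11 control members (-2.06, -2.63 to -1.50), of which 33 came from 1 control nucleus. Without the top nucleus of each library its ratio was -1.23. Mterf4, which acts in mitochondrial ribosome assembly, had 24 and 22 UMIs (-1.65, -2.55 to -0.75) and was also lower in outer nuclei (-1.05, -1.43 to -0.69). The same held for 4930438E09Rik, at -1.39 in inner and -1.37 in outer nuclei. Palld, an actin scaffold gene, stood at -1.55, and 2610035D17Rik at -1.52. The noncoding Meg3 was at -1.47, the nuclear receptor gene Ppard at -1.41 and the collagen gene Col4a4 at -1.39. The prostaglandin E synthase gene Ptges was at -1.36 and the phosphodiesterase gene Pde7b at -1.35. Pde7b (-0.57, -0.89 to -0.26) and Meg3 (-0.47, -0.72 to -0.22) were lower in outer nuclei too. B4galnt3 was higher there (0.44, 0.11 to 0.78), and the outer intervals of the remaining genes spanned both directions. Outside the hair cell gate, Mterf4 stood at -0.79, 4930438E09Rik at -1.085, Pde7b at -0.11, Meg3 at 0.27 and B4galnt3 at 0.37. Mterf4, Palld, 4930438E09Rik and Col4a4 overlap other annotated genes on the opposite strand, so part of their reads may belong to those genes. In nuclei of at most 8000 UMIs, 55 in cOE and 13 in control, 6 of these 20 named genes were no longer 2-fold apart. They were Meg3 at 0.14, Mterf4 at -0.03, B4galnt3 at -0.89, 2610035D17Rik at -0.71, Srp19 at 0.63 and Dcun1d5 at 0.91.

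**Figure D5:**
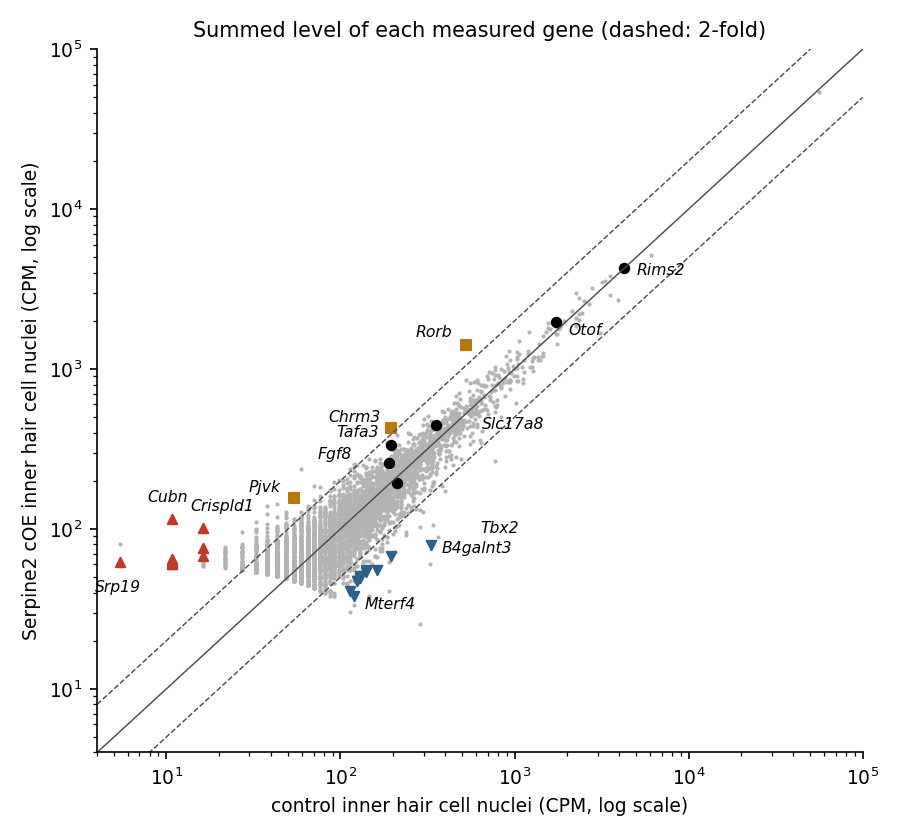
Each point is 1 gene with at least 40 UMIs in inner hair cell nuclei and at least 1 in each library, at its CPM in control (horizontal, log scale) and Serpine2 cOE (vertical, log scale), with dashed lines at 2-fold. Black circles are the 6 markers, red and blue triangles the 10 highest and 10 lowest genes, and brown squares 3 genes picked after their values were seen. The markers lie within 2-fold, and the red triangles sit at 1 to 3 control UMIs.

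Serpine2 (an inhibitor of thrombin and plasminogen activators) gave 39 UMIs in 22 of 84 cOE members and 7 UMIs in 5 of 22 control members. These are 61.8 and 37.9 CPM, a log2 ratio of 0.70 (-0.47 to 2.11), whose interval holds 0. In outer nuclei the Serpine2 ratio was 0.45 (-0.065 to 0.97). Outside the hair cell gate Serpine2 was at 90.9 and 96.7 CPM, a log2 ratio of -0.09. Lgr5, the gene that carries the driver, was in 65 and 20 members at 291 and 266 CPM (0.13, -0.33 to 0.62), and in outer nuclei it was at 170 and 199 CPM. The 11 genes listed for nascent hair cells and progenitors summed to 602 and 612 CPM in the members, 370 and 375 CPM in outer nuclei and 108 and 90.1 CPM outside the hair cell gate. Most of these UMIs in the members came from Lgr5, from the Notch ligand gene Jag2 (120 and 157 CPM) and from Tmc2. Others of the list had few: Atoh1, the factor that starts hair cell formation, had 1 and 2 UMIs, Sox2, a factor of supporting cells, had 5 and 0, and Insm1 had none in either library. The 14 proliferation markers together gave 51 and 10 UMIs, 80.7 and 54.2 CPM against 57.2 and 77.6 outside the hair cell gate (0.58, -0.42 to 1.72).

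Markers of other cell types were summed over the members. The 11 supporting cell markers stood at 787 CPM in cOE and 813 in control, below the 2362 and 2020 CPM of nuclei outside the hair cell gate, with none at 0 in cOE and 2 at 0 in control. The 7 mesenchymal markers were at 382 and 450 CPM against 1361 and 1322, with none at 0. The 7 macrophage markers were at 106 and 97.5 CPM against 110.5 and 164 outside the gate, with none at 0 in cOE and 1 in control. The 8 neuron markers, at 157 and 152 CPM against 150 and 106, were not below the nuclei outside the gate, and 1 was at 0 in both. The 7 Schwann and glia markers were at 125 and 146 CPM against 291 and 249, and the 6 bone and cartilage markers at 307 and 352 against 689 and 711. The 5 erythroid markers were at 85.5 and 86.7 CPM against 189 and 143, and the 7 markers of the lateral wall and roof at 108 and 152 against 505 and 422. The 5 endothelial markers were at 136 and 75.8 CPM against 466 and 564 (0.84, 0.02 to 1.77), with 3 at 0 in control, and the 13 mitochondrial genes at 2742 and 1977 CPM (0.47, 0.31 to 0.64). Lum, a matrix gene of the mesenchymal list, was 2-fold higher in cOE members (51 and 7 UMIs, 1.09, -0.06 to 2.47) and at 1.41 in outer nuclei. In outer nuclei the mitochondrial ratio was 0.46 and the endothelial ratio -0.36. The part of these levels in the gene differences between libraries was not tested.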

How the data were processed

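The authors deposited counts, whole numbers of UMIs per gene and barcode, written with Cell Ranger 8.0.1 per the file headers and the series' design text. Per the labels, libraries were made with a 10x Chromium 3' kit, and the build is given as GRCm39 in one place and mm10 in another. Gene positions came from GENCODE M39 by gene identifier (33185 of 33696 found), and no value depends on them. The 2 libraries held 40429121 and 31158971 UMIs in 12014 and 9820 barcodes. The members and gene lists were chosen with earlier results of these data known. UMIs of the members were summed per library and scaled to CPM. Levels have exact Poisson intervals, shares Clopper-Pearson intervals and ratios exact conditional intervals, each at 95% and for counting error only. Past 2-fold is a rule of size, not a test, and a count of 0 was set to 3 UMIs for a ratio.

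Named genes between libraries were the 10 highest and 10 lowest with at least 40 UMIs, seen in at least 10 members and 2-fold apart also without the nucleus holding most of their UMIs in each library. Class totals were not rescaled when that nucleus was left out, so the filter tends to favour genes higher in cOE. Between classes the named genes were the 12 highest and 12 lowest that passed 2-fold in both libraries. Mitochondrial, Xist, Tsix and Y-linked genes were left out of both. Genes of the 25 lists were all counted. Doublets were scored with Scrublet (scanpy 1.11.5), whose automatic threshold marked 0% in both libraries. Members were therefore not filtered on it, and the top 0.8% of scores per 1000 barcodes (9.61% and 7.85% of nuclei) were removed only as an alternative. TMM factors came from edgeR 4.0.16 in R 4.3.3. The scripts were checked on simulated counts. Other alternatives changed the gate, the filters on UMIs and genes, and the depth by thinning to 1000 UMIs.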

Additional observations from a re-analysis of the deposited data

How the results depend on the processing

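The share ratios kept their direction under every gate tried. Requiring at least 5 of 8 hair cell genes, at least 200 or 1000 genes, or at least 3000 UMIs kept the same 84 and 22 members. These settings could change a ratio only through the nuclei set against the members, so they are no separate check. Over kept nuclei, the log2 ratio was 2.70 when nuclei were thinned to 1000 UMIs before the gate (25 and 3 members left, with 449 and 886 shallower nuclei left out), and it lay between 1.19 and 2.11 under the other alternatives. Over inner and outer nuclei together it lay between 0.93 and 1.89. The numbers of genes past 2-fold moved with the genes tested. Against 174 higher and 84 lower in cOE, there were 544 and 255 with at least 20 UMIs (7.55% and 3.54% of 7203 genes), 17 and 15 with at least 100 UMIs (0.961% and 0.848% of 1769) and 404 and 29 without the top nucleus of each gene (9.06% and 0.650% of 4460). The last pair leans towards cOE by the way it was made. Class totals were kept while each gene lost 1 of 22 control and 1 of 84 cOE nuclei. After thinning there were 15 and 8 (4.05% and 2.16% of 370), and in nuclei of at most 8000 UMIs 100 and 30 (4.73% and 1.42% of 2116), beside 3.90% and 1.88% of 4460. Between inner and outer nuclei, thinning left 117 higher and 140 lower of 3786 genes in place of 271 and 336 of 11243. Of 164 values of the 26 genes compared between libraries, 157 moved by less than their counting interval, 6 moved by more, and Meg3 turned to 0.14 in nuclei of at most 8000 UMIs. Of the 157, 26 came from requiring at least 5 of 8 hair cell genes, which kept the same nuclei, so these values could not move. Another 26 came from TMM factors, which shift every gene by the same 0.077. These values therefore say nothing about stability gene by gene. Genes with at most 3 UMIs in a library after thinning have no value there. No paired analysis was possible because each group is 1 library. The 22 control nuclei limit the ratios: 1 UMI there stands for several CPM.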

Other observations

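A few genes differed between the libraries in inner hair cell nuclei and were picked after their values were seen, so they are given as values only. Rorb, an orphan nuclear receptor gene, had 891 UMIs in 74 of 84 cOE and 97 in 19 of 22 control members, 1411 and 526 CPM, a log2 ratio of 1.43 (1.12 to 1.74). The Rorb ratio was 1.61 without the top nucleus of each library, 0.32 (0.22 to 0.42) in outer nuclei and 0.79 in nuclei outside the hair cell gate. Values without top nuclei in this section tend to lean towards cOE, as described for Atp2a2. The median of Rorb per member was 10.2 UMIs per 10000 in cOE, with a highest value of 63.3, and 5.43 in control, and members with none were found in both libraries. Chrm3, a muscarinic acetylcholine receptor gene, stood at 428 and 195 CPM (1.13, 0.63 to 1.68) against -0.16 in outer nuclei. It was in 61 of 84 and 13 of 22 members, and in 26 of 302 and 21 of 245 outer nuclei. Pjvk, which encodes pejvakin, a protein needed for hearing, had 98 and 10 UMIs (1.52, 0.58 to 2.62), and was in 51 and 6 members. Sema3a, an axon guidance ligand, had 95 and 10 UMIs (1.47, 0.53 to 2.58), and Heg1, a membrane receptor gene, 115 and 14 (1.26, 0.46 to 2.18). Differences of the ratios between inner and outer nuclei were not tested.

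Lower in cOE were Farp1, at 106 and 341 CPM, of whose 63 control UMIs 39 came from 1 nucleus (-1.69, and -0.53 without the top nuclei), and the potassium channel gene Kcnb2, at 499 and 840 CPM (-0.75, and -0.22 without the top nuclei). Sex-linked genes also differed between the libraries within the members. Uty had 150 and 11 UMIs in the members, a log2 ratio of 1.99 (1.11 to 3.03) against 1.21 (1.13 to 1.29) in all kept nuclei, and Xist was at -0.89 (-1.04 to -0.74) against -0.43 (-0.44 to -0.41). Eif2s3y stood at 1.88 (0.77 to 3.23) in the members against 1.11, and Kdm5d had 15 and 0 UMIs. The differences from all kept nuclei were not tested. How the sex mix of the nuclei bears on the other ratios was not tested.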
